A study of Homo sapiens with 11 samples.

Results

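Proteasome genes were described in 11 human PC-3 tumours grown in mice, 5 from animals given PBS and 6 from animals given A2M. The members were all genes of the deposited tables whose symbol runs from PSMA to PSMG and ends in a number, which gave 48 of 25590 genes listed. They comprise the alpha and beta subunits of the catalytic core, the ATPases and other subunits of the regulatory particle, assembly chaperones, and the activators and the inhibitor that bind the core. After the filter on low counts 46 of the 48 were among 16630 genes tested. The other members, PSMA8 and PSMB11, are treated apart.

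PC-3 is an established human prostate carcinoma cell line. The cells were injected subcutaneously with matrigel into male athymic nude mice (Crl:NU-Foxn1nu), which lack a thymus and mature T cells but keep other leukocytes. Control animals received PBS and treated animals received transformed alpha2-macroglobulin (A2M*, called A2M in the labels), a plasma protease inhibitor in the activated form that binds the receptor LRP1, by intraperitoneal injection over several weeks. Both groups thus carried the same cell line in the same host strain, and each tumour gave 1 library of human reads, named here by its group and tumour number (PBS-123, A2M-128). The labels do not say whether each tumour came from a separate mouse, so the p-values measure the spread between tumours.

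The proteasome degrades proteins tagged with ubiquitin. Its barrel-shaped core stacks outer rings of alpha subunits, which gate the entrance, on inner rings of beta subunits, of which beta1 (PSMB6), beta2 (PSMB7) and beta5 (PSMB5) cut peptide bonds. Interferon induces replacements for these 3 subunits, beta1i (PSMB9), beta2i (PSMB10) and beta5i (PSMB8), that form the immunoproteasome and favour peptides suited to MHC class I. It also induces PA28, the activator made of PSME1 and PSME2. The regulatory particle unfolds ubiquitylated proteins with a ring of ATPases (PSMC genes) and holds the receptors and deubiquitylase for ubiquitin (PSMD genes).

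Total human counts ran from 26042224 to 35874381 in the PBS tumours and from 16958533 to 33223999 in the A2M tumours, so that 3 counts correspond to between 0.0836 and 0.177 CPM (counts per 1000000 counts). The totals of the groups differed by -5515565 counts on average (A2M minus PBS, p = 0.119, two-sided exact permutation test, n = 5 and 6). The PC-3 markers KRT8, KRT18, EPCAM and CDH1 were between 61.4 and 376 RPKM, and CTNNA1, which PC-3 cells lack, was below 1 RPKM in every tumour, while KLK3 had 0 counts in all. Of the 4 leukocyte markers only CD68 exceeded 2 RPKM, and their sum was between 24.3 and 33.0 RPM (reads per 1000000) in PBS and between 24.3 and 32.9 in A2M. The 3 endothelial markers summed to between 15.5 and 23.4 RPM in PBS and between 14.8 and 22.7 in A2M. The 7 fibroblast and mural cell markers summed to between 324 and 668 RPM in PBS and between 324 and 924 in A2M, mostly COL1A1. No host marker was at 0 in all tumours, CD3E and DCN had at most 4 counts, and the part of host cells in the results was not tested. In bulk tumours fewer cells of a type and less RNA per cell cannot be told apart.

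The inducible subunit genes PSMB8 and PSMB10 share a sequence near their starts with PSME1 and PSME2. In the RefSeq promoter windows (build GRCh38.p14, 250 bases before to 50 after each start), which held 42 of the 48 members, the core of the interferon-stimulated element, GAAANNGAAA on either strand, was present in 7 members (16.7%) and in 4.38% of 27305 symbols. The form GAAAGCGAAA was present in 5 members (11.9%), namely PSMB8, PSMB10, PSME1, PSME2 and the chaperone gene PSMG4, and in 34 of 27305 symbols (0.125%), TAP1 among them. It was chosen as the commonest match in the windows of these same members and TAP1. A high share among members follows in part from that choice, and no conclusion is drawn from it. The windows around this form are shown because PSMB8, PSME1, PSME2 and TAP1 are compared across tumours further on. Each is read 5′ to 3′ on the strand of its gene, and capitals mark the match, which reads TTTCGCTTTC where it lies on the opposite strand.
PSMB8: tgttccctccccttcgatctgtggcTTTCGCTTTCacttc
PSMB10: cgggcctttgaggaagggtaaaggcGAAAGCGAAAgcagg
PSME1: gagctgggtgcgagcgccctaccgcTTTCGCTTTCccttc
PSME2: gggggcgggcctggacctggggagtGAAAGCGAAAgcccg
PSMG4: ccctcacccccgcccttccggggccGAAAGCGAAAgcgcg
TAP1: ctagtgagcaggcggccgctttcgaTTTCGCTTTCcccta

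These windows lie at chr6:32844037-32844076 (minus strand) for PSMB8, chr16:67936857-67936896 (minus) for PSMB10, chr14:24136174-24136213 (plus) for PSME1, chr14:24146624-24146663 (minus) for PSME2, chr6:3258889-3258928 (plus) for PSMG4 and chr6:32853818-32853857 (minus) for TAP1. A match is a description of the letters and does not show that a factor binds there. The window of PSMB9 held neither form. Its RefSeq start lies 488 bases from that of TAP1, the peptide transporter subunit, and the PSME1 and PSME2 starts lie 10416 bases apart. The core of the antioxidant response element, TGACNNNGC, the letters bound by NRF1 and NRF2 with small MAF proteins, was present in 15 of the 42 members (35.7%, against 16.1% of all symbols). CCAAT was present in 20 members (47.6%, against 39.7%) and the gamma-activated site core TTCNNNGAA in 8 (19%, against 9.38%), both strands searched.

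Proteasome RNA was abundant in every tumour. The 48 genes together took between 0.528% and 0.6255% of all human counts. On the deposited RPKM scale, which divides by exon length, the alpha ring ran from PSMA5 at 35.9 ± 2.6 to PSMA7 at 232 ± 15.3 (mean ± SD over 11 tumours). The constitutive beta ring ran from PSMB2 at 21.0 ± 1.87 to PSMB4 at 259 ± 13.3. The ranges of PSMB4 (235 to 277 RPKM) and PSMA7 (209 to 259 RPKM), the highest members of the 2 rings, overlapped. Genes whose products sit in the same particle in equal number thus differed in deposited RPKM by 6.47-fold in the alpha ring and 12.3-fold in the beta ring. These folds depend on the exon lengths used. Per kilobase of the GENCODE canonical transcript, PSMA4 was lowest in the alpha ring at 25.6 CPM, with PSMA5 at 36.4 and PSMA7 at 249.

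In the regulatory particle the ATPases ran from PSMC2 at 38.6 ± 3.50 to PSMC5 at 142 ± 9.46 RPKM. The other subunits ran from PSMD11, a lid subunit, at 33.9 ± 3.14 to PSMD2, a large scaffold subunit, at 184 ± 27.5 RPKM. The ubiquitin receptor PSMD4 was at 98.6 ± 4.83 RPKM and the deubiquitylase PSMD14 at 63.9 ± 7.68 RPKM. The assembly chaperones ran from PSMD5 at 12 ± 1.0 to PSMD10 (gankyrin) at 52.6 ± 4.65 RPKM. Their median of 20.7 RPKM was below those of the ATPases (67.7) and the other subunits (59.2), but the ranges overlapped. PSMG1, PSMG2, PSMG3 and PSMG4, which guide assembly of the alpha ring, were at 19.1, 42.5, 36.9 and 15.3 RPKM on average.

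Among the activators, PA28 was at the level of the core. PSME2 was at 176 ± 18.02 and PSME1 at 128.5 ± 10.01 RPKM, against 25.9 ± 2.48 for the nuclear activator gene PSME3 and 17.3 ± 2.81 for PSME4, which encodes PA200. PSMF1, whose product inhibits the core, was at 35.4 ± 2.03 RPKM. The core subunit PSMA8 of the testis had at most 1 count in any tumour. PSMB11, the beta5t subunit of cortical thymic epithelium, had at most 6 counts and reached 0.118 RPKM. These genes were thus near or under the limit of detection in both groups.

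**Figure D1:**
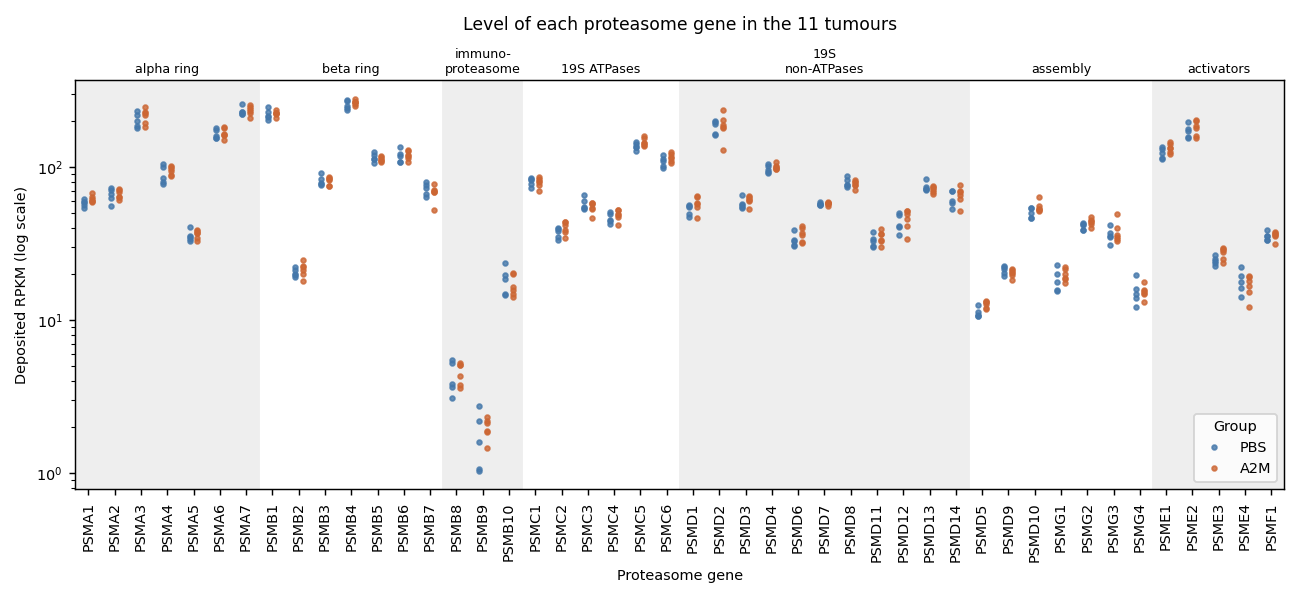
Deposited RPKM (log axis) of the 46 tested proteasome genes in each of the 11 tumours, arranged by subcomplex, with PBS tumours in blue and A2M tumours in orange. PSMB4 and PSMA7 are highest at means of 259 and 232 RPKM and the inducible subunits PSMB8 and PSMB9 lowest, and the colours intermingle in each gene.

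Of the inducible catalytic subunits, PSMB8 and PSMB9 were the lowest tested members on the deposited scale. PSMB10 was at 17.5 ± 3.11, PSMB8 at 4.40 ± 0.841 and PSMB9 at 1.86 ± 0.536 RPKM (n = 11). The deposited exon lengths of PSMB8 (14174 bases) and PSMB9 (8377 bases) are however 12.6 and 8.24 times those of their GENCODE canonical transcripts (1124 and 1017 bases). This holds for the MHC region as a whole, where 134 of 150 genes have a deposited length more than 5 times the canonical one, against 0.718% of 18249 genes elsewhere, and the cause was not tested. The sources used here do not say how reads that map to more than 1 place were counted, so counts of PSMB8, PSMB9 and TAP1 may also be too low, which would lower their levels and their shares of PSMB5 and PSMB6. Divided by the canonical length, PSMB8 was at 55.4 ± 10.6 and PSMB9 at 15.4 ± 4.41 RPKM, against 18 ± 3.2 for PSMB10. On that scale the constitutive counterparts were at 158 ± 7.74 (PSMB5), 125.05 ± 9.80 (PSMB6) and 71.9 ± 7.81 (PSMB7). The order between the inducible subunits thus depended on the length used, whereas each was below its constitutive counterpart in every tumour on either scale, as counted.

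A2M and PBS tumours were compared to ask whether treatment changed proteasome RNA in the tumour cells. None of the 46 members passed an adjusted p under 0.01, nor did any of the 16630 genes (0%; edgeR quasi-likelihood test, Benjamini-Hochberg adjustment), and the smallest adjusted p was 0.698 among members and 0.599 among all genes. DESeq2 called 1 gene at that threshold, REP15, which is no member. At an unadjusted p under 0.05, 1 member was higher in A2M (3.55% of all genes tested were) and 0 were lower (3.53% were). The groups' CPM overlapped for all 46 members, while 0.710% of all genes did not overlap.

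The fitted differences were small. The log2 fold changes (A2M minus PBS) of the members ran from -0.15 to 0.15, with 26 above and 20 below 0, and their median was 0.022, beside -0.0021 for all genes tested. The median size of the difference, regardless of sign, was 0.048 for members and 0.085 for all genes. The 95% interval lay within 0.5 log2 units on either side of 0 for 45 members (74.5% of all genes tested) and within 0.3 for 41 (41.5%). Only the interval of PSMB9 passed 0.5. Every tested member had at least 207 counts a tumour, and the genes tested were not matched to the members for counts. The smaller differences and narrower intervals are therefore not shown to be particular to the proteasome.

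**Figure D2:**
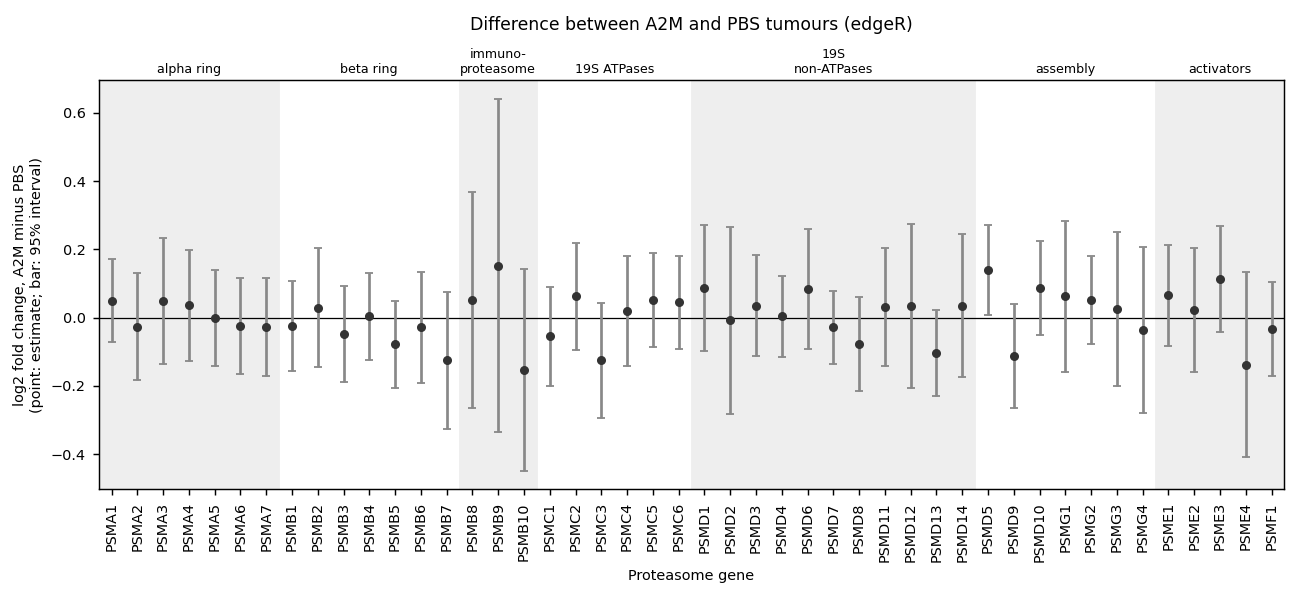
Fitted log2 fold change (A2M minus PBS, edgeR) of the 46 tested proteasome genes by subcomplex, with bars for the 95% interval. All estimates lie between -0.15 and 0.15, and the interval leaves out 0 only for PSMD5.

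PSMD5, a chaperone of the ATPase ring on chromosome 9 (hg19 123577774 to 123605229, minus strand), was the member with the smallest p. Its CPM was 38.9, 38.4, 38.7, 43.3 and 37.9 in tumours PBS-123 to PBS-127. It was 44.2, 41.1, 44.9, 44.1, 40.4 and 45.7 in tumours A2M-128 to A2M-132 and A2M-112. Thus 4 PBS tumours lay below all A2M tumours, and PBS-126 lay within their range. The log2 fold change was 0.14 ± 0.062 (SE; unadjusted p = 0.0404, adjusted p = 0.698). Leaving out any of 8 of the 11 tumours, or dropping the filter on low counts, raised the unadjusted p above 0.05.

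The other chaperones of the ATPase ring did not share 1 direction. PSMD10 had a log2 fold change of 0.087 ± 0.064 (adjusted p = 0.840, edgeR) and PSMD9, also called p27, of -0.11 ± 0.071 (adjusted p = 0.803). PSMD10 CPM lay between 73.9 and 84.8 in PBS and between 81.4 and 96.5 in A2M. PSMD9 CPM lay between 45.6 and 55.3 in PBS and between 41.8 and 51.1 in A2M. In both genes the ranges overlapped. Of the 7 assembly members 5 were above 0 and 2 below, with a median of 0.052.

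PSME3 (PA28 gamma) had a log2 fold change of 0.11 ± 0.072 (adjusted p = 0.803, edgeR), with 88.9 to 100 CPM in PBS and 87.0 to 113 CPM in A2M. Its lowest and highest values were in treated tumours, A2M-132 and A2M-112. Without A2M-132 the log2 fold change was 0.16 ± 0.063 (unadjusted p = 0.0287, adjusted p = 0.449, edgeR). Removing the lowest treated value raises this difference by construction. In that fit 1684 of 16605 genes had an unadjusted p under 0.05.

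On the lower side, PSMD13, a lid subunit, was at 151.1, 142.5, 137.5, 130.5 and 131.7 CPM in tumours PBS-123 to PBS-127. It was at 129.3, 122.3, 134.2, 122.1, 130.9 and 136.2 CPM in tumours A2M-128 to A2M-132 and A2M-112. The 3 highest values were thus in PBS and the 3 lowest in A2M, with overlap between (log2 fold change -0.10 ± 0.059, adjusted p = 0.773, edgeR). The ATPase PSMC3 had a log2 fold change of -0.13 ± 0.078 (adjusted p = 0.797), with 85.0 to 103 CPM in PBS and 70.9 to 91.9 CPM in A2M. Its lowest value was again in A2M-132.

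The alpha ring had the narrowest range of differences, with log2 fold changes from -0.027 to 0.049 over 7 genes (3 above and 4 below 0). The constitutive beta ring had 2 genes above and 5 below 0, and among its catalytic subunits the log2 fold changes were -0.078 ± 0.060 for PSMB5, -0.029 ± 0.076 for PSMB6 and -0.12 ± 0.093 for PSMB7 (adjusted p = 0.846, 0.968 and 0.843, edgeR). The 6 ATPases (4 above, 2 below) had a median of 0.033 and the 11 other subunits of the regulatory particle (7 above, 4 below) a median of 0.032. The direction of PSMB6 turned to 0.014 when only library size was used for scaling.

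Most members varied little between tumours. The coefficient of variation of CPM over the 11 tumours had a median of 7.98% for the 46 members and 13.1% for all genes tested, and 7 members lay above the latter. The steadiest member was PSMD7, a lid subunit, at 3.16% (90.5 to 102 CPM), and the most variable was PSMB9 at 28.4%, followed by PSMB8 at 18.5% and PSMB10 at 17.9%. Outside these inducible subunits the highest were PSME4 at 16.1% and PSMD2 at 15.1%. Lower counts bring more sampling noise, and PSMB9 rested on 207 to 826 counts a tumour. At counts of a like size PSMB10 (253 to 711) was at 17.9% and PSMG4 (266 to 609) at 13.1%. The part of sampling noise was not tested. The comparison with all genes tested was not matched for counts.

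PSMD2 was at 596, 644, 539, 629 and 521 CPM in tumours PBS-123 to PBS-127. It was at 574, 595, 555, 625, 396 and 752 CPM in tumours A2M-128 to A2M-132 and A2M-112. The lowest and highest tumours, A2M-132 and A2M-112, were both treated and differed 1.90-fold, while the PBS tumours lay between them. PSME4 was also lowest in A2M-132, at 84.2 CPM, and highest in PBS-126, at 157 CPM.

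A2M-132 had the lowest value for 23 of the 46 members, among them PSMB7, PSMC3, PSMD2 and PSME4, whereas PBS-123 had the highest for 15 and A2M-112 for 14. Apart from the inducible subunits, PSME1 and PSME2, the median deviation of the other 41 members from their own mean was -0.15 log2 units in A2M-132, -0.10 in PBS-127, 0.12 in A2M-112 and 0.12 in PBS-123. Each group thus held a tumour high and a tumour low in these genes. The share of all genes tested that were lowest or highest in these tumours, and their median deviation, were not computed. Neither the counts nor the deviations are therefore shown to be particular to the proteasome. A2M-132 had a total of 22310631 counts, less than all but A2M-129, its scaling factor was 1.03, and its summed fibroblast and mural cell markers were 604 CPM, within the range of both groups, and the part of depth and of these markers was not tested. Without A2M-132 the median log2 fold change of the members was 0.024, and no member passed the adjusted threshold.

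**Figure D3:**
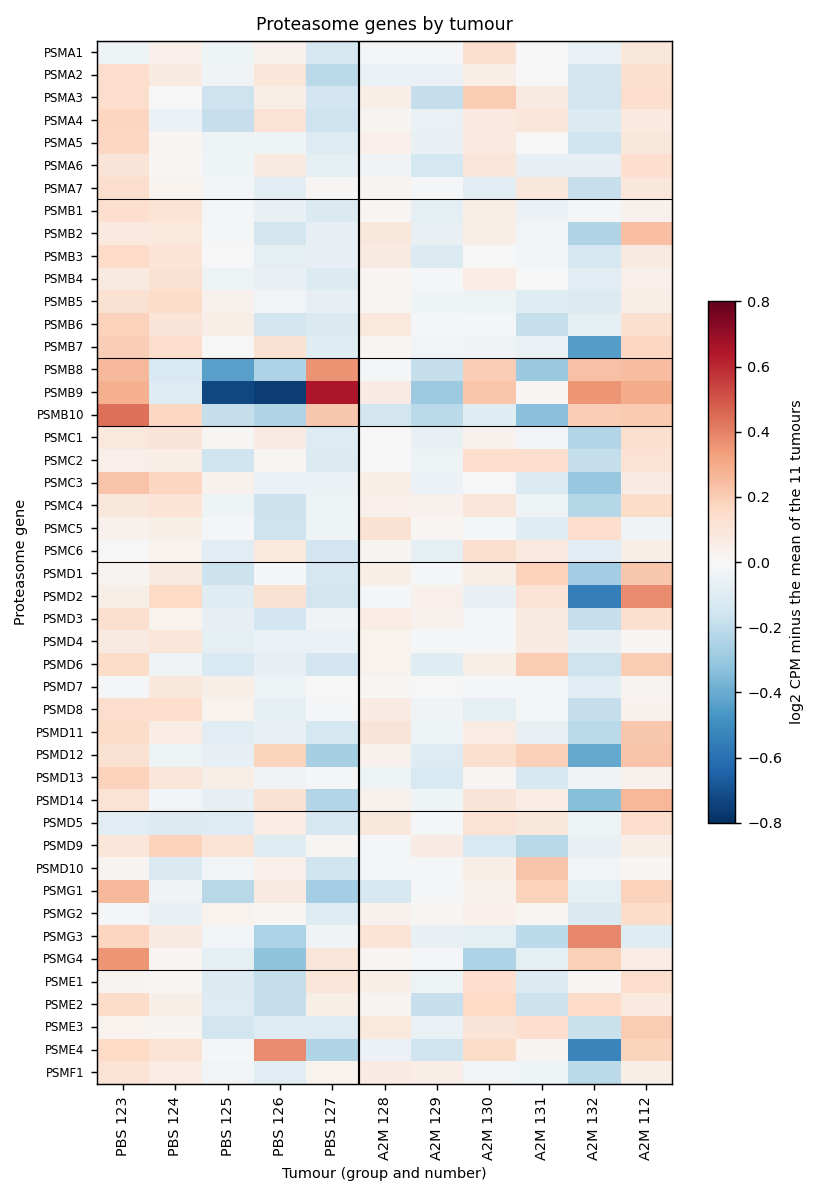
Heatmap of log2 CPM minus the mean over the 11 tumours (colour scale in log2 units, from -0.8 in blue to 0.8 in red) for the 46 tested proteasome genes, rows ordered by subcomplex and columns by group. A2M-132 is blue across most rows, with a median of -0.15 over the 41 members outside the inducible subunits and PA28 alpha and beta. The rows of PSMB8, PSMB9 and PSMB10 are red in tumours PBS-123, PBS-127, A2M-132 and A2M-112 and blue in tumours PBS-125 and PBS-126. Those of PSME1, PSME2 and PSMG4 have the same signs in these tumours.

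The 3 inducible subunits followed an order of tumours unlike that of most members. PSME1, PSME2 and PSMG4 deviated to the same side as they did in tumours PBS-123, PBS-125, PBS-126, PBS-127, A2M-132 and A2M-112. PSMB9 (beta1i, chromosome 6, hg19 32811913 to 32827628, plus strand) was at 18.2, 13.9, 9.02, 8.82 and 23.5 CPM in tumours PBS-123 to PBS-127. It was at 15.7, 12.2, 17.5, 15.1, 19.1 and 18.4 CPM in tumours A2M-128 to A2M-132 and A2M-112. The PBS tumours thus held both the lowest and the highest values, a 2.66-fold range, and enclosed the A2M tumours (log2 fold change 0.15 ± 0.23, 95% interval -0.34 to 0.64, adjusted p = 0.927, edgeR). The log2 fold change was 0.39 without PBS-127, 0.24 without PBS-123, 0.019 without PBS-125 and 0.018 without PBS-126.

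PSMB8 (beta5i, chromosome 6, hg19 32808494 to 32812456, minus strand) was at 73.4, 56.3, 45.3, 51.7 and 78.8 CPM in tumours PBS-123 to PBS-127. It was at 60.9, 53.7, 70.1, 49.8, 72.2 and 72.9 CPM in tumours A2M-128 to A2M-132 and A2M-112. Again PBS-127 was highest and PBS-125 lowest (log2 fold change 0.051 ± 0.15, adjusted p = 0.970, edgeR), and the direction turned to -0.040 without PBS-125. In GENCODE, PSMB8 and PSMB9 overlap at their ends on opposite strands, and PSMB8-AS1 overlaps both. The counts used RefSeq models, and the RefSeq start of PSMB9 lies 488 bases from that of TAP1, away from the PSMB8 start. Whether the models counted share these exons was not checked. With unstranded libraries, reads from any shared exons cannot be assigned to 1 of the genes.

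PSMB10 (beta2i, chromosome 16, hg19 67968409 to 67970767, minus strand) was at 23.6, 19.5, 15.2, 14.7 and 20.2 CPM in tumours PBS-123 to PBS-127. It was at 15.6, 14.9, 16.2, 13.7, 19.9 and 20.1 CPM in tumours A2M-128 to A2M-132 and A2M-112. The highest value was in PBS-123 and the lowest in A2M-131, with overlap (log2 fold change -0.15 ± 0.14, adjusted p = 0.875, edgeR).

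For PA28, PSME1 was at 133 to 162 CPM in PBS and 140 to 167 CPM in A2M (log2 fold change 0.065 ± 0.069, adjusted p = 0.900, edgeR). PSME2 was at 126.9 to 160.5 CPM in PBS and 127.4 to 161.9 CPM in A2M (0.023 ± 0.085, adjusted p = 0.972). The groups overlapped almost wholly for PSME2, and the sign of its difference turned when PBS-125, PBS-126, A2M-130 or A2M-132 was left out.

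Because each inducible subunit takes the place of 1 constitutive subunit, the log2 ratio of their counts, each divided by the deposited exon length, was compared between groups. For PSMB8 over PSMB5 it was -4.79 ± 0.36 in PBS and -4.65 ± 0.23 in A2M (mean ± SD, difference 0.14, p = 0.422, adjusted over the 3 ratios 0.633, two-sided exact permutation test, n = 5 and 6). For PSMB9 over PSMB6 it was -6.19 ± 0.61 in PBS and -5.92 ± 0.24 in A2M (difference 0.27, p = 0.340, adjusted 0.633, same exact test). For PSMB10 over PSMB7 it was -2.0 ± 0.28 in PBS and -2.01 ± 0.33 in A2M (difference -0.012, p = 0.970, adjusted 0.970, same exact test). The smallest p that the 462 labelings allow is 0.00433. None of the 3 ratios thus differed beyond the spread between tumours.

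Leaving out PBS-127, the tumour with the most PSMB9, gave a difference of 0.50 in the ratio of PSMB9 to PSMB6 (unadjusted p = 0.0476, exact permutation test, n = 4 and 6). Removing the highest PBS value raises this difference by construction, so no conclusion is drawn from that p. Leaving out any other tumour gave differences between 0.11 and 0.35 (unadjusted p between 0.246 and 0.667, same exact test). As shares, PSMB9 was between 0.886% and 2.57% of PSMB6 per deposited length, or between 6.90% and 20.03% per canonical transcript length. PSMB8 was between 2.75% and 5.13% of PSMB5 per deposited length, or between 24.9% and 46.5% per canonical length. PSMB10 was between 19.4% and 38.8% of PSMB7 per deposited length. The length used moves the level of the ratios and leaves the differences between groups as they were.

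**Figure D4:**
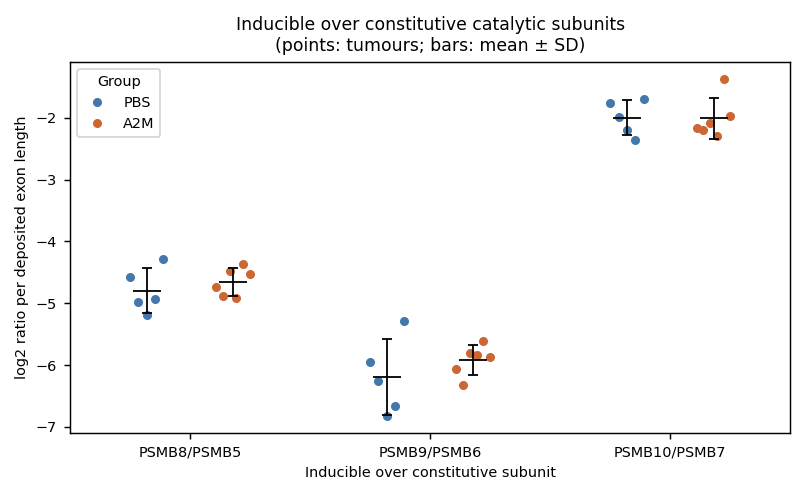
Log2 ratio of each inducible catalytic subunit to the constitutive subunit it replaces, per deposited exon length, in 5 PBS (blue) and 6 A2M (orange) tumours, with black bars for mean ± SD. The groups overlap in each pair, and the PBS spread of PSMB9 over PSMB6 (SD 0.61) is wider than that of A2M (0.24).

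Then 4 relations between genes across tumours were computed on log2 CPM. PSMB8 and PSMB9 rose and fell together (Pearson's r = 0.887, permutation p = 0.00011, adjusted over the 4 relations 0.00022, Spearman's rho = 0.891, permutation p = 0.00051, n = 11). Without tumours PBS-125 and PBS-127, farthest from the median of PSMB8, r was 0.795 (exact permutation p = 0.00352, n = 9). Taken as deviations from the group means, r was 0.895 (exact permutation p = 0.000995 within groups), so the relation was as strong with the group difference removed. Reads from any exons that the counted models of both genes share would bear on this pair, and their part was not tested.

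PSMB9 and its neighbour TAP1 had r = 0.925 (permutation p = 6e-05, adjusted 0.00022, rho = 0.900, permutation p = 0.00048, n = 11). Without tumours PBS-125 and PBS-126 r was 0.822 (exact permutation p = 0.00766, n = 9), and on deviations from the group means it was 0.935 (exact permutation p = 0.00116). TAP1 itself was at 52.9 to 106 CPM in PBS and 64.4 to 92.4 CPM in A2M. In both genes PBS-127 was highest and PBS-126 lowest.

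PSME1 and PSME2 had r = 0.798 (permutation p = 0.00364, adjusted 0.00485, rho = 0.773, permutation p = 0.00714, n = 11). Without tumours PBS-126 and A2M-112 r was 0.758 (exact permutation p = 0.0195, n = 9), and on deviations from the group means it was 0.819 (exact permutation p = 0.00582). In contrast PSMB9 and its constitutive counterpart PSMB6 had r = 0.110 (permutation p = 0.741, adjusted 0.741, rho = 0.118, permutation p = 0.736, n = 11). Without tumours PBS-125 and PBS-126 their r was -0.13 (exact permutation p = 0.737, n = 9), and on deviations from the group means it was 0.150 (exact permutation p = 0.685). The inducible subunit thus varied with its inducible neighbours, and no relation with the subunit it replaces was detectable over 11 tumours.

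**Figure D5:**
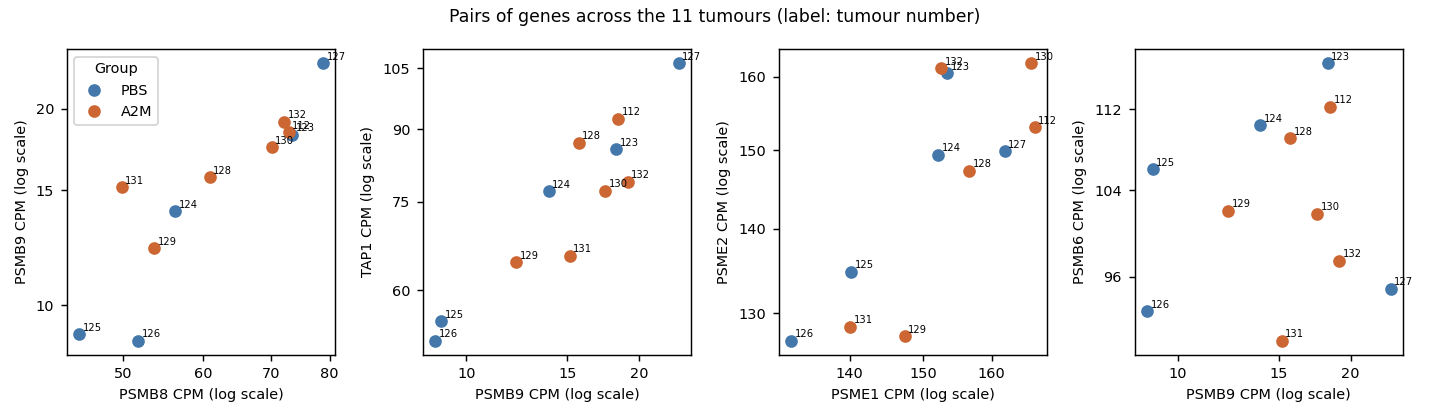
CPM (log axes) of PSMB8 and PSMB9, PSMB9 and TAP1, PSME1 and PSME2, and PSMB9 and PSMB6 in the 11 tumours, labelled by tumour number, PBS in blue and A2M in orange. The first 3 panels rise from lower left to upper right (r = 0.887, 0.925 and 0.798) and the last does not (r = 0.110), and both colours spread along each panel.

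Genes that work with the proteasome were counted in the same fit, and none passed the adjusted p under 0.01. Among 12 interferon and MHC class I genes 8 were above and 4 below 0, none at an unadjusted p under 0.05. ERAP2, which trims peptides for MHC class I, had the smallest p among those above 0 (log2 fold change 0.20 ± 0.11, unadjusted p = 0.0953). The summed level of the 12 genes was lowest in tumours PBS-125 and PBS-126 (3324 and 3309 CPM) and highest in PBS-127 (6011 CPM), the tumours that were also lowest and highest in PSMB9.

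Of 8 regulators of proteasome gene transcription 2 were above and 6 below 0, none at an unadjusted p under 0.05. NFE2L3, a relative of NRF1, had a log2 fold change of -0.15 ± 0.11 (unadjusted p = 0.171, edgeR) and NFE2L2, which encodes NRF2, of 0.083 ± 0.074 (unadjusted p = 0.280). Of 10 partners and assembly factors 6 were above and 4 below 0. The deubiquitylase gene USP14 (0.11 ± 0.097, unadjusted p = 0.258, edgeR) and SEM1 (listed as SHFM1), a small subunit of the regulatory particle (-0.042 ± 0.068, unadjusted p = 0.543), had the smallest p in each direction.

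Of 14 ubiquitin and shuttle genes, 7 were above and 7 below 0, with a median of 0.0014. UBQLN2, a shuttle for ubiquitylated proteins, had the smallest p above 0 (log2 fold change 0.089 ± 0.056, unadjusted p = 0.136, edgeR). None of those above 0 had an unadjusted p under 0.05.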

How the data were processed

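Human reads of 11 PC-3 xenografts were analysed. Per the study's methods, TruSeq v2 libraries, which do not mark strand, were sequenced as single reads. Reads were extracted with bcl2fastq 1.8.4 and split from mouse reads with xenome. Human reads were aligned to hg19 with TopHat (TopHat2 in the submitters' processing notes) and assigned to RefSeq genes with featureCounts. The strand and multi-mapping settings are not given in the sources used here. The authors deposited raw read counts per gene, RPM (counts per 1000000 counts) and RPKM (RPM divided by the featureCounts exon length in kilobases). The deposited RPM equalled the counts divided by their column total and rescaled.

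Groups came from the sample descriptions. Members and gene lists were chosen with earlier results of these data known. Counts were fitted with edgeR 4.0.16 in R 4.3.3 (filterByExpr, TMM scaling, quasi-likelihood test, no covariates), and p-values were adjusted (Benjamini-Hochberg) over all 16630 genes tested with a threshold of 0.01. CPM are TMM-scaled, with a prior count of 2 on the log2 scale used for relations between genes. Errors of fold changes are SE. Ratios were tested by exact permutation and relations by 100000 permutations. Fold changes are given for the 6 catalytic subunits, PSME1, PSME2 and the 3 members with the smallest p in each direction. Other lists are given by counts and the gene with the smallest p in each direction. Values of some genes of these lists are not reported here. PSMD2, PSME4, PSMD7 and A2M-132 were singled out after their values were seen. Gene positions come from GENCODE v44lift37 on GRCh37, and promoter windows from RefSeq. Alternatives were other scalings and filters, DESeq2 1.42.0, limma 3.58.1 (voom, and log2 of RPKM plus 0.1), and leaving out each tumour. The edgeR fit was tested on simulated data. No pair of the 55 pairs of libraries agreed within sampling noise. The 95% intervals of fold changes include the spread between tumours, and the limit of 3 counts covers counting error only. At least 207 counts a tumour lay behind each tested member.

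In GENCODE v44lift37, exons of 15 members overlap another gene on the opposite strand, and 17 members have named pseudogenes, 44 in all. Overlaps in the RefSeq models used for the counts were not checked. Counts of these members may thus be shared with or lost to other genes.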

Additional observations from a re-analysis of the deposited data

Results flagged for a closer look

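In 38 groups of values searched (the CPM of the 14 named members, the 3 ratios, the totals and the median deviation of the members, each within PBS and within A2M), 3 held a tumour far from the others. Chance flags about 1 in 20 such groups, or 1.9 of 38. PSMD5 was at 43.3 CPM in PBS-126, against 37.9 to 38.9 CPM in the other PBS tumours. PSMD10 was at 96.5 CPM in A2M-131. Its other A2M values ran from 81.4 to 85.5 CPM. The log2 ratio of PSMB10 to PSMB7 was -1.37 in A2M-132, against -2.29 to -1.96 in the other A2M tumours. In that tumour PSMB7 was at 51.8 CPM, its lowest value, and PSMB10 at 19.9 CPM, within the range of its group.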

How the results depend on the processing

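The count of members past the adjusted p under 0.01 stayed at 0 under every alternative run, a looser adjusted p under 0.05 and joint unadjusted p-values from edgeR and DESeq2 no larger than 0.01 among them. The count at an unadjusted p under 0.05, 1 member (PSMD5), was 0 without the filter on low counts. It lay between 0 and 2 when 1 tumour was left out, with 2 without A2M-132. Over all genes tested, the same count was 1178 of 16630 in the main fit and 1355 of 22078 without the filter. It lay between 682 and 1684 when 1 tumour was left out, with 1684 of 16605 genes without A2M-132. The median log2 fold change of the members lay between -0.012 and 0.048 when 1 tumour was left out and was 0.065 with library size only. Of 266 fold changes of the 14 named members under alternatives, 256 kept their direction and 10 reversed. PSMB6 (-0.029) became 0.014 with library size only, 0.017 with limma on log2 RPKM, 0.016 without PBS-123 and 0.0059 without A2M-131. PSMB8 (0.051) became -0.040 without PBS-125 and -0.0033 without PBS-126. PSME2 (0.023) became -0.00092, -0.020, -0.0048 and -0.0062 without tumours PBS-125, PBS-126, A2M-130 and A2M-132. Over the fits that left out 1 tumour, PSMB6 lay between -0.067 and 0.016, PSMB8 between -0.040 and 0.16, PSMB9 between 0.018 and 0.39 and PSME2 between -0.020 and 0.064. The ratio differences then lay between 0.046 and 0.27 for PSMB8 to PSMB5, between 0.11 and 0.50 for PSMB9 to PSMB6, and between -0.14 and 0.064 for PSMB10 to PSMB7. In the same way r lay between 0.842 and 0.957 for PSMB8 with PSMB9, 0.893 and 0.949 for PSMB9 with TAP1, 0.737 and 0.844 for PSME1 with PSME2, and -0.16 and 0.32 for PSMB9 with PSMB6, which was -0.13 without its 2 farthest tumours. What causes the reversals was not tested. The canonical transcript length was an alternative chosen after seeing the data. No paired analysis was possible because the groups share no tumour numbers.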
